A study of Mus musculus with 6 samples.

Results

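The respiratory chain genes described here are mainly the subunits of complexes I, III and IV and of ATP synthase (complex V), encoded in the nucleus and in mitochondrial DNA. Members were chosen by symbol: nuclear genes beginning Nduf (a, b, c, s or v), Uqcr, Cox4 to Cox8 or Atp5, without pseudogene symbols ending in -ps, plus the 13 protein-coding genes of the mitochondrial genome. The symbols took in 108 of the 49997 genes of the table. A level of at least 10 normalized reads in at least 3 of the 6 libraries left 106 members, of 20277 genes kept in all. Of the kept members 93 were nuclear and 13 mitochondrial. The nuclear ones included 8 complex I assembly factors (Ndufaf) and the copy-like genes Ndufb4b, Ndufb4c, Ndufs6b, Ndufa11b and Cox6c2. These copies were counted with complex I or, for Cox6c2, complex IV. Cox7b2, at 1.88 to 8.66 normalized reads, and Cox8c, with 0 reads in all 6 libraries, were not kept; in mice both are best known from testis.

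RNA was measured in whole retinas of male mice, 1 retina per library and 3 libraries per group. The mutant group carried the genotype Samd7 knockout (-10A) and was sampled at postnatal day 31. The controls were wild type, of strain c57Bl6/j, and were sampled at postnatal day 36, so genotype and age cannot be told apart. Whether the retinas of 1 group belonged to different mice is not stated in the labels. The p-values therefore measure only how far these retinas differed from each other, which may be technical. Each retina was kept in RNAlater, and polyadenylated RNA was reverse transcribed with the SMARTer Ultra Low kit, fragmented as cDNA and amplified for 15 cycles without molecular identifiers.

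Samd7 is a polycomb-associated silencing factor of rod photoreceptors. Its own transcript was 6.57-fold higher in the libraries labelled Samd7 KO, so the mutant group is named throughout by its label. Recovered reads ranged from 44231112 to 62813549 per library. The tissue was retina by its markers: all 8 rod, all 8 cone, all 6 bipolar, and all 8 amacrine and ganglion cell markers were kept. Of the 8 rod markers 5 were lower in the KO-labelled libraries, all 8 microglial and all 5 red blood cell markers were higher, and 5 of 9 markers of the retinal pigment epithelium were lower. Over all 20277 genes, 5.21% were lower and 6.79% higher at the same threshold, a limma adjusted p under 0.05. Of the 8 cone markers, Opn1sw, Gngt2 and Cnga3 were 9.53-fold, 9.12-fold and 9.24-fold higher and Opn1mw was 2.47-fold lower. Of 7 Müller glia markers 2 were higher and 1 lower. Their part in the results on respiratory genes was not tested. In bulk tissue, fewer cells of a type and less RNA per cell cannot be told apart.

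The respiratory chain passes electrons from NADH through complex I to ubiquinone, then through complex III and cytochrome c to complex IV, which reduces oxygen. The proton gradient built along the way drives ATP synthase. Complexes I, III, IV and V are each assembled from nuclear subunits imported into the mitochondrion and from a few catalytic or membrane subunits made inside it, whereas complex II is wholly nuclear. Photoreceptors pack these enzymes into the mitochondria of the inner segment, which feed one of the highest oxygen demands of any tissue.

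Most respiratory chain genes had estimates slightly below 0 in the retinas labelled Samd7 KO, though few passed the test, and the only higher call was a complex IV subunit. Of the 106 members, 14 were lower and 1, Cox8a, was higher at a limma adjusted p under 0.05. Over all 20277 genes the same test called 5.21% lower and 6.79% higher, against 13.2% and 0.943% of the members. The fold change was below 0 on the log2 scale for 93 of 106 members, with a median of -0.15, while over all genes the median was 0.0018 and 49.7% of genes lay below 0. All 3 KO-labelled libraries lay below all 3 wild-type libraries for 35 members (33.0%), against 15.2% of all genes. The reverse held for 4 members, Cox8a, Cox7a2l, Ndufa4l2 and Ndufs1, against 15.9% of all genes. The lower calls depended on single libraries, as their number ranged from 1 without wild type 3 to 26 without KO 1. Over all 20277 genes the lower calls of those fits were 509 and 1385, against 1056 with all libraries. Cox8a and Ndufs7 were called under all 18 other settings tried.

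**Figure D1:**
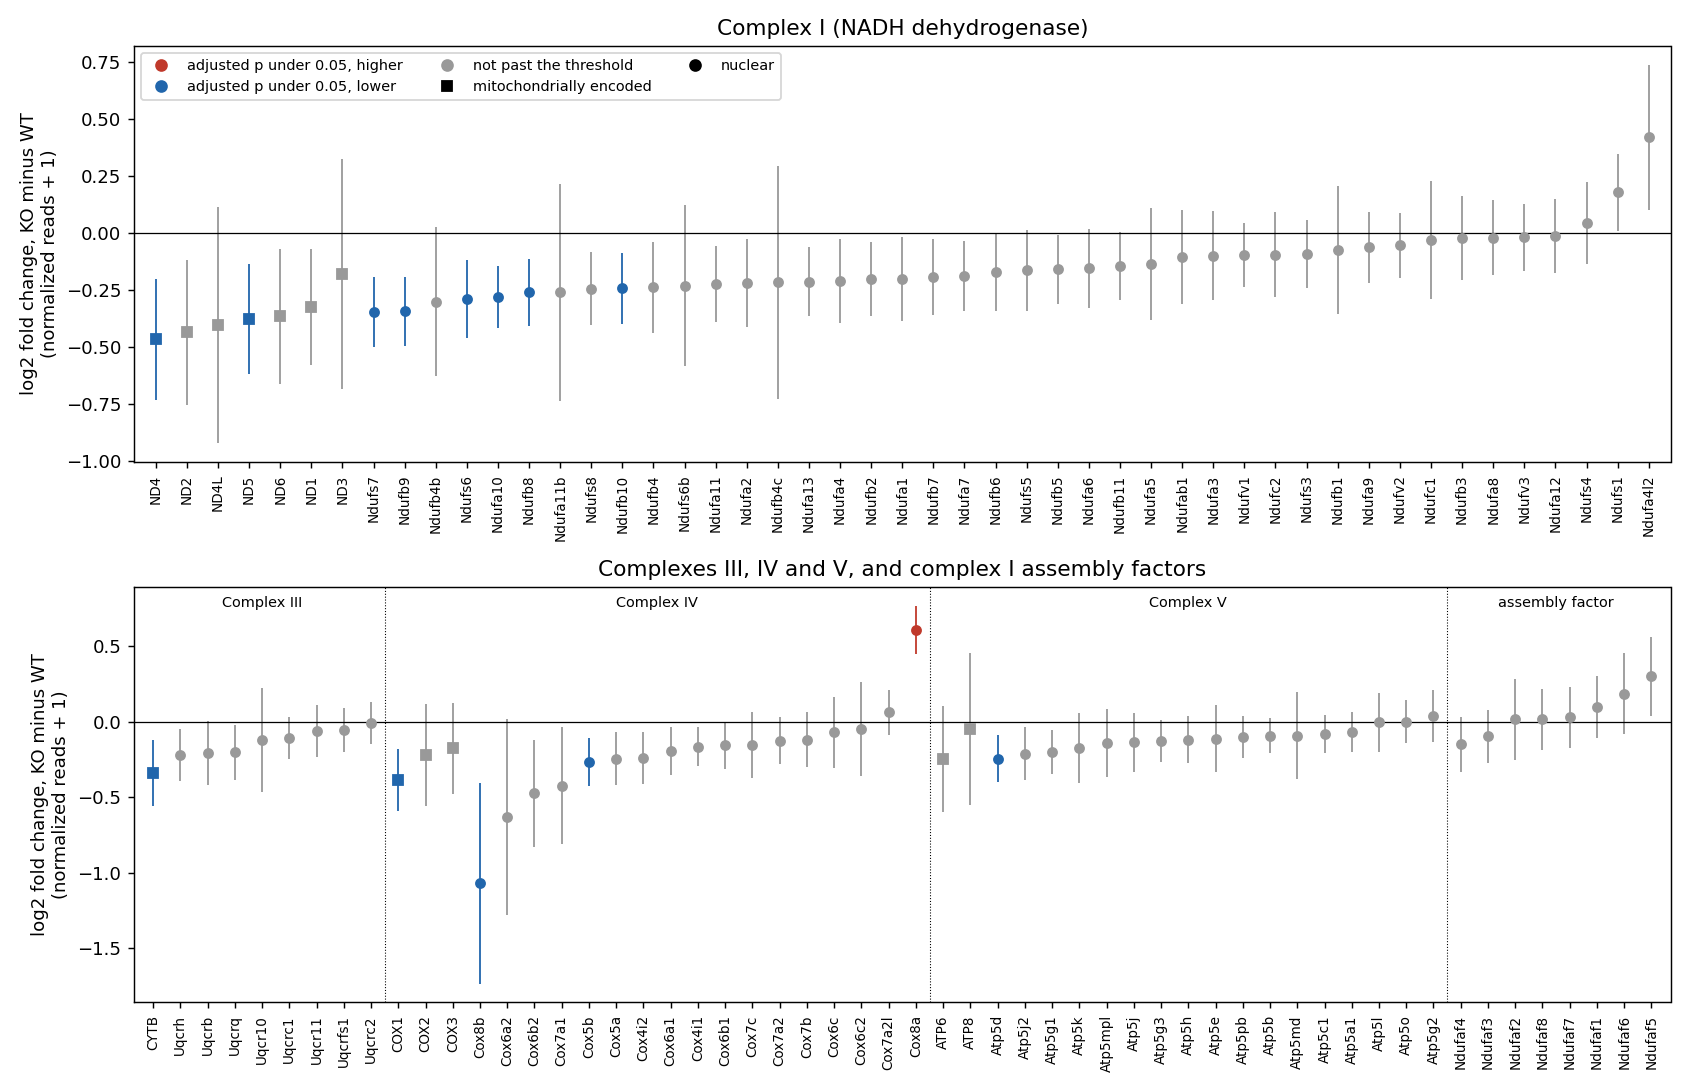
Log2 fold change of the kept members reported here, KO-labelled minus wild type, on the log2(normalized reads + 1) scale. Points are limma estimates and bars their 95% intervals, with 3 libraries a group; squares are mitochondrially encoded, and colour marks an adjusted p under 0.05. All 13 squares lie below 0, and Cox8a, at 0.61, stands above the other complex IV genes.

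The largest called changes in each direction belonged to the isoforms of subunit VIII of complex IV, the smallest nuclear subunit of that enzyme. Cox8a is the form found in most tissues, and Cox8b is known in rodents from heart and skeletal muscle. Their proximal promoters are shown because the 2 genes moved in opposite directions. Both are read from the RefSeq promoter table on the GRCm38.p6 assembly, from 110 bases before to 30 bases after the gene start, on the gene's strand. Capitals mark a match in each window. In Cox8a it is CCGGAAGT, the core bound by the ETS factor GABPA (here in reverse complement), and in Cox8b it is TATAAA. The Cox8a match spans the gene start. The Cox8b match lies within the 30 bases after the gene start, not upstream of it. The Cox8a window lies at chr19:7217587-7217726, minus strand, and the Cox8b window at chr7:140900417-140900556, minus strand.
Cox8a: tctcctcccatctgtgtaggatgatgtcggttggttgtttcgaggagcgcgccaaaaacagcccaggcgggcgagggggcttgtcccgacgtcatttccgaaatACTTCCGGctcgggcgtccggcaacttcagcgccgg
Cox8b: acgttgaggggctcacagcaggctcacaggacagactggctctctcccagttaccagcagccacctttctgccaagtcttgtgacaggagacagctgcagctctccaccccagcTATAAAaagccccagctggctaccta

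Cox8a (NCBI Gene 12868, chromosome 19, 7215158 to 7217616) stood at 36745, 32532 and 33392 normalized reads in KO 1 to 3, and at 20591, 23979 and 22719 in wild type 1 to 3. The groups did not overlap, and the lowest KO-labelled library was above the highest wild-type library. The mean was 1.53-fold higher, with a log2 fold change of 0.61 ± 0.073 (SE) and a limma adjusted p of 1.73e-04. The authors' deposited table gives Cox8a a log2 fold change of 0.61 with an adjusted p of 1.73e-09. No 50-base stretch of its transcript occurred in another annotated transcript.

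Cox8b (NCBI Gene 12869, chromosome 7, 140898942 to 140900446) was rare, at 44.0, 22.8 and 22.1 normalized reads in the KO-labelled retinas against 53.9, 76.8 and 52.7 in wild type. KO 1 lay well above KO 2 and KO 3 but still below every wild-type library. The mean was 2.06-fold lower, with a log2 fold change of -1.07 ± 0.304 (SE) and a limma adjusted p of 0.0403. The call was lost in 8 of 18 other settings, among them leaving out any library but KO 1. Cox8a made up 99.7% to 99.9% of the summed COX8 reads, not corrected for length, in every library.

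No other complex IV subunit was called higher. Set against Cox4i1, the common form of the regulatory subunit IV, Cox8a gave a ratio of 1.37, 1.30 and 1.27 in the KO-labelled libraries and of 0.716, 0.816 and 0.773 in wild type. Set against Cox6a1, the ratio was 2.57, 2.65 and 2.48 against 1.40, 1.49 and 1.52. Neither ratio depends on how the libraries were scaled to each other, and the groups did not overlap in either.

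Among the 17 nuclear genes of complex IV, 15 had fold changes below 0, and Cox5b was the only lower call besides Cox8b. The 2 lower calls were 11.8% of these genes, against 5.21% of all genes. Cox5b, which encodes the zinc-binding subunit on the matrix side, stood at 7850, 6999 and 7499 normalized reads against 8458, 9371 and 9057, with a log2 fold change of -0.27 and a limma adjusted p of 0.0332. All 3 KO-labelled libraries were below wild type, but 25.9% of the 50-base stretches of Cox5b were shared with other annotated transcripts, mainly Gm11273. Cox4i1 had 26849, 24978 and 26334 normalized reads against 28762, 29377 and 29397. Its groups did not overlap either, yet it missed the threshold at a log2 fold change of -0.16 and a limma adjusted p of 0.0934.

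**Figure D2:**
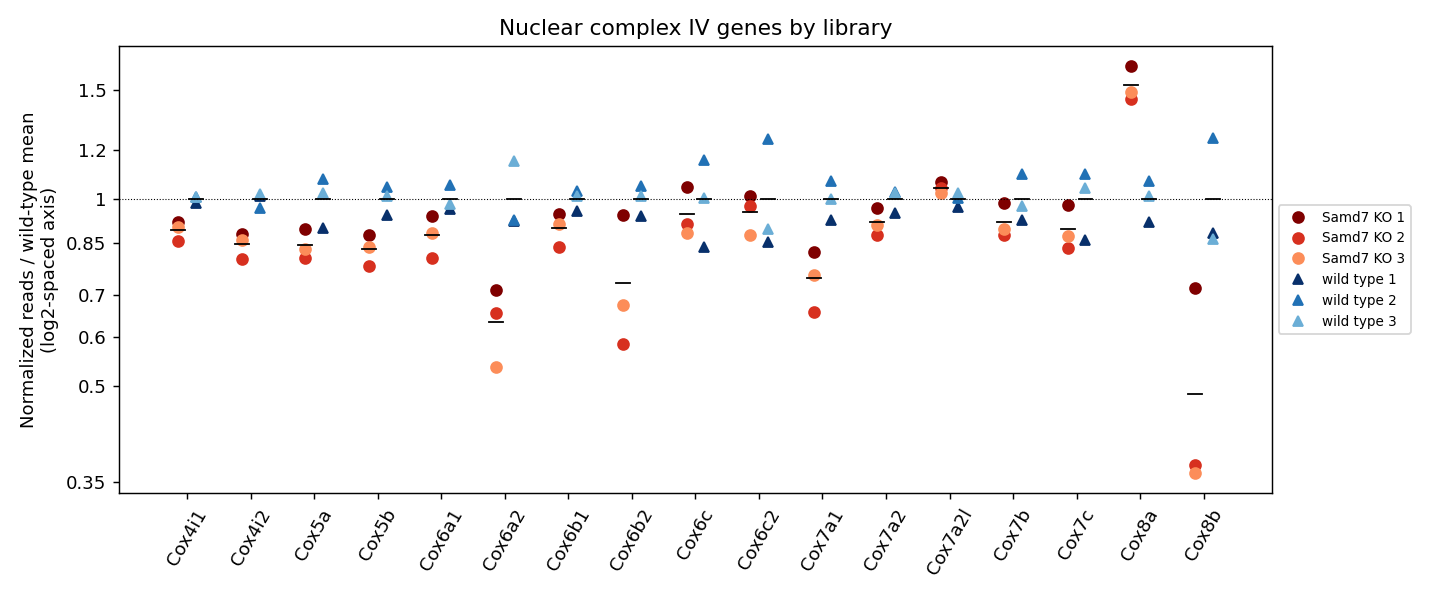
Normalized reads of each nuclear complex IV gene divided by its wild-type mean, on a log2-spaced axis, with circles for KO-labelled and triangles for wild-type libraries and black bars at the group means. Cox8a sits above its wild-type libraries in all 3 KO-labelled retinas, and Cox8b spreads from 22.1 to 44.0 normalized reads in that group.

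Several complex IV subunits exist as a common form and as a form known from muscle, lung or testis, and most of these minor forms had few reads in retina. Cox6a2, the heart and muscle form of subunit VIa, had 19.2, 17.6 and 14.4 normalized reads against 24.8, 24.9 and 31.1, with a log2 fold change of -0.63 and a limma adjusted p of 0.203. Cox7a1, its counterpart in subunit VIIa, had 88.0, 70.5 and 80.8 against 99.2, 115 and 107, with -0.42 and 0.153. For both genes all KO-labelled libraries lay below wild type, but neither passed the threshold.

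Cox6b2, known from testis, had 448, 278 and 320 normalized reads against 446, 499 and 481, so KO 1 overlapped the controls. Cox4i2, known from lung and from oxygen-sensing cells such as pericytes, had 2140, 1950 and 2091 against 2464, 2353 and 2477 with no overlap. Their log2 fold changes were -0.47 and -0.24, with limma adjusted p of 0.0851 and 0.0753. Cox4i2 was 7.24% to 7.38% of the COX4 reads in the KO-labelled libraries and 7.42% to 7.89% in wild type.

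The list of minor isoforms had 9 tested genes, 3 of them the general ATP synthase c-ring genes Atp5g1 to Atp5g3, and held 1 lower call, Cox8b, and no higher call, with a median log2 fold change of -0.24. For the 6 others, known from heart, muscle, lung, testis or hypoxia and split off after values were seen, the median was -0.45. Markers of cells in which such forms are known gave few calls: 5 of 10 skeletal and heart muscle markers were kept, none was called, and their sum was 439 to 590 normalized reads in KO-labelled and 464 to 522 in wild-type libraries. The fast myosins Myh1 and Myh2 were at or near 0 in every library, and Myh4 reached 6.59 in wild type 3 only. Of 8 pericyte markers, Abcc9 was higher and Vtn lower. Estimates for 7 of the 8 lay above 0, with a list median of 0.38, while the sum of 66080 to 72410 against 89290 to 96790 is mostly Vtn. The part of these cells in the isoform values was not tested.

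Apart from Cox8a, the common forms of complex IV subunits had fold changes nearer 0. The log2 fold changes of Cox6a1, Cox6b1, Cox6c, Cox7a2 and Cox7b were -0.19, -0.16, -0.07, -0.12 and -0.12, and none passed the threshold. Cox7a2l, studied as a factor of supercomplexes of complexes III and IV, had 5006, 4891 and 4813 normalized reads against 4560, 4722 and 4808. Its KO-labelled libraries were all above wild type, narrowly so between KO 3 and wild type 3, with a limma adjusted p of 0.611.

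Complex I held 9 of the 14 lower calls, 7 of them among its 43 nuclear genes. This enzyme has a hydrophilic arm, which carries the flavin and the iron-sulfur clusters, and a membrane arm, which pumps protons. The nuclear genes had a median log2 fold change of -0.17, and 40 of 43 lay below 0. By symbol class, 3 of 9 Ndufs genes, 3 of 13 Ndufb genes and 1 of 16 Ndufa genes were lower, while neither Ndufc gene and none of the 3 Ndufv genes was called. The 7 calls were 16.3% of the 43 genes, against 5.21% of all genes. The Ndufa share, 6.25%, was near that of all genes. All KO-labelled libraries were below all wild-type libraries for 18 of the 43 (41.9%), against 15.2% of all genes.

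Ndufs7 (NCBI Gene 75406, chromosome 10, 80249105 to 80256794) encodes the core subunit that holds the last iron-sulfur cluster before ubiquinone. It stood at 10194, 8874 and 9896 normalized reads against 12270, 12421 and 12015, with no overlap. The mean was 1.27-fold lower, with a log2 fold change of -0.34 ± 0.070 (SE) and a limma adjusted p of 0.00739. The adjusted p stayed between 8.79e-04 and 0.0397 over the other settings.

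Ndufb9 (NCBI Gene 66218, chromosome 15, 58933801 to 58939516), an accessory subunit of the membrane arm, stood at 9463, 8733 and 9438 normalized reads against 10990, 12059 and 11982. The groups were again apart, with a 1.27-fold lower mean and a limma adjusted p of 0.00699. Of its 50-base stretches, 23.4% were shared, mainly with Gm49356, and the call was lost only without wild type 3, at an adjusted p of 0.0581.

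Ndufs6, a zinc-binding accessory subunit, had 4153, 3669 and 3589 against 4513, 4774 and 4624, with a log2 fold change of -0.29 and a limma adjusted p of 0.0343. Ndufa10, an accessory subunit related to nucleoside kinases, had 10574, 9974 and 10591 against 12828, 12546 and 12397, with -0.28 and 0.0128.

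The other lower calls in the membrane arm were Ndufb8 and Ndufb10. Ndufb8 had 10820, 10019 and 11289 normalized reads against 12988, 12512 and 12901 (log2 fold change -0.26, limma adjusted p 0.0265). Ndufb10 had 9269, 8014 and 8884 against 10265, 10223 and 10386 (-0.24, adjusted p 0.0472). For each nuclear complex I call described here the KO-labelled and wild-type libraries were fully separated, KO 2 was the lowest library in all but Ndufs6, and the fold was modest, from 1.18 to 1.27.

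Nuclear core subunits, which carry the electron path, differed among themselves in size and direction of the estimate. Ndufs7 was lower, and Ndufs8 missed narrowly at a log2 fold change of -0.24 and a limma adjusted p of 0.0520. Ndufs3, Ndufv1 and Ndufv2 had log2 fold changes of -0.09, -0.10 and -0.05. Ndufs1, which carries several of the iron-sulfur clusters, had a log2 fold change of 0.18 with an adjusted p of 0.160.

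Ndufa4, listed with complex I by its symbol but now regarded as a complex IV subunit, was the highest nuclear gene of this group per transcript length. It had 18199, 16523 and 16355 normalized reads against 17350, 21538 and 20308, and KO 1 overlapped wild type 1. Its relative Ndufa4l2, known as a hypoxia-induced gene, had 289, 218 and 251 against 180, 189 and 193. These groups were apart, with a 1.35-fold higher mean, but the log2 fold change of 0.42 ± 0.145 (SE) had a limma adjusted p of 0.0866.

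The 8 complex I assembly factors of the Ndufaf series, which help build the enzyme and are not part of it, had no call: 2 lay below 0, and the median log2 fold change was 0.02. The range ran from -0.15 for Ndufaf4 to 0.30 for Ndufaf5. Ndufaf5 had 4299, 3526 and 4022 normalized reads against 2610, 3553 and 3515, where wild type 1 was low and KO 2 lay among the other controls.

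The nuclear genes of complexes III and V had medians nearer 0, a difference from complexes I and IV that was not tested. None of the 8 nuclear complex III genes was called, although all 8 lay below 0, from -0.22 to -0.01 with a median of -0.11. Uqcrc2, a core protein of complex III, was the one nearest 0, at 8511, 8276 and 8559 normalized reads against 8518, 8326 and 8656. Its libraries were fully mixed.

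Of the 17 nuclear genes of ATP synthase, 15 lay below 0 with a median of -0.11, and Atp5d was the only call. That share, 5.88%, was near the 5.21% of all genes called lower. Atp5d, the delta subunit of the rotating central stalk, had 16352, 13798 and 14924 normalized reads against 18028, 17800 and 17408, a 1.18-fold lower mean with a limma adjusted p of 0.0460. The call was lost in 10 of 18 other settings. The catalytic beta subunit Atp5b, the member with the most reads among the nuclear genes, had 106080, 108420 and 111410 against 119000, 113000 and 115550 with a log2 fold change of -0.09 and an adjusted p of 0.293.

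The c-ring subunit of ATP synthase is encoded by 3 genes with the same mature protein. Atp5g1 had 8305, 7697 and 8165 normalized reads against 8915, 9586 and 9242. Atp5g3 had 17481, 16359 and 16949 against 17611, 19429 and 18519, and Atp5g2 had 5191, 4560 and 4794 against 4442, 4942 and 4769. Only the Atp5g2 groups overlapped, and the limma adjusted p was 0.0781, 0.224 and 0.801 for Atp5g1, Atp5g3 and Atp5g2. All 50-base stretches of Atp5g2 and 56.2% of those of Atp5g1 also occurred in other annotated transcripts, so their values are uncertain.

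The mitochondrially encoded subunits had the lowest median of the members, but their libraries overlapped. All 13 had fold changes below 0, from -0.46 to -0.05 with a median of -0.34. The nuclear members had a median of -0.14, or -0.15 without assembly factors. ND4, COX1, ND5 and CYTB were called lower, 4 of 13 (30.8%), against 5.21% of all genes. COX1 was the only mitochondrial gene whose KO-labelled libraries were all below wild type (7.69% of the 13, against 15.2% of all genes). The 13 genes are transcribed from the same small circular genome, so they are not independent of each other.

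CYTB (MT, 14145 to 15288), the cytochrome b of complex III, had the highest level per transcript length of all members, 120010 normalized reads per kb. It stood at 138570, 114350 and 110530 normalized reads against 132060, 171980 and 156280. KO 1 was above wild type 1, and the other 2 KO-labelled libraries were below all controls. The mean was 1.27-fold lower, with a log2 fold change of -0.34 ± 0.101 (SE) and a limma adjusted p of 0.0492.

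COX1 (MT, 5328 to 6872), the catalytic subunit of complex IV, stood at 95494, 78901 and 79677 normalized reads against 95742, 119890 and 116400. KO 1 and wild type 1 were almost equal, so the separation of the groups rests on that narrow margin. The mean was 1.31-fold lower, with a log2 fold change of -0.38 ± 0.094 (SE) and a limma adjusted p of 0.0198.

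Of the complex I subunits, ND4 (MT, 10167 to 11544) had 45053, 32960 and 34217 normalized reads against 43422, 57622 and 53348. ND5 (MT, 11742 to 13565) had 47332, 36365 and 36992 against 44866, 58727 and 52779. Both encode proton-pumping subunits of the membrane arm. In each, KO 1 lay above wild type 1, and the log2 fold changes were -0.46 ± 0.122 (SE) and -0.38 ± 0.111 (SE), with limma adjusted p of 0.0279 and 0.0475.

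ND1, ND2 and ND6 had log2 fold changes of -0.32, -0.44 and -0.36 and missed the threshold, with limma adjusted p of 0.0983, 0.0781 and 0.110. ND2 had 28106, 20375 and 20636 normalized reads against 24152, 34840 and 34707. In all 3 genes KO 1 exceeded wild type 1, as in ND4. The authors' deposited table puts ND2 and ND6 past its threshold, with adjusted p of 0.0198 and 0.0422, and calls 17 members lower in all, among them the 14 called here.

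**Figure D3:**
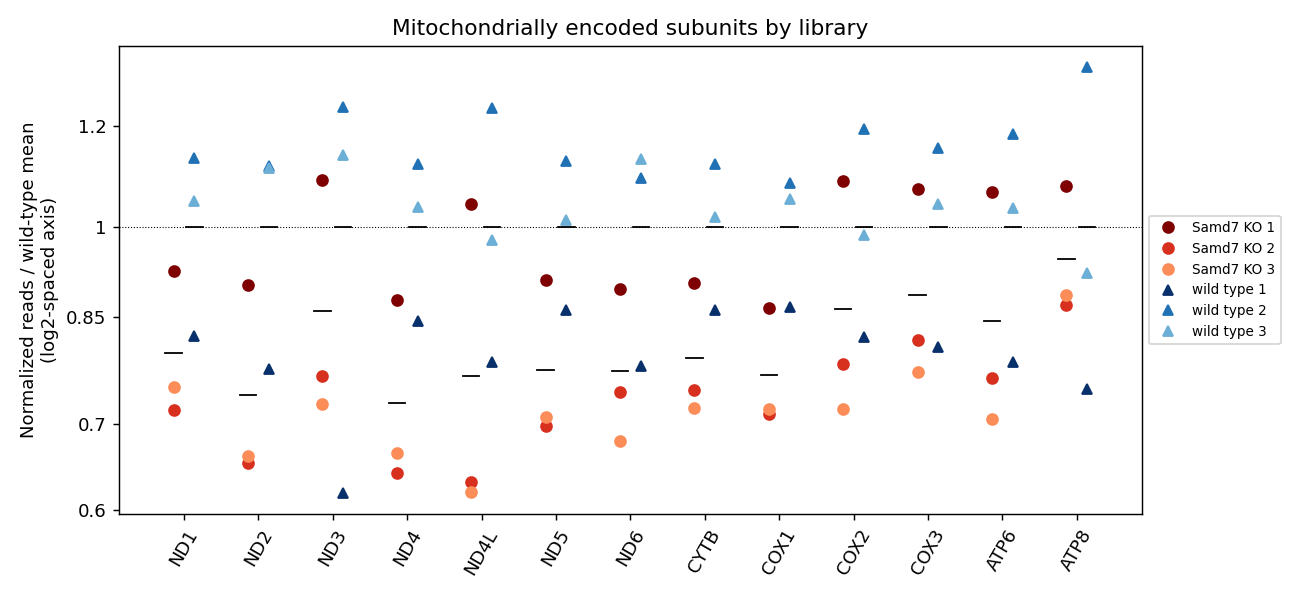
Normalized reads of each mitochondrially encoded subunit divided by its wild-type mean, on a log2-spaced axis, with circles for KO-labelled and triangles for wild-type libraries and black bars at group means. KO 1 and wild type 1 cross in 12 of the 13 genes, all but COX1, while KO 2 and KO 3 lie below wild type 2 and wild type 3 throughout.

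The crossing was shared by nearly the whole mitochondrial set. The median over the 13 genes, as log2 level relative to the wild-type mean, was -0.10, -0.42 and -0.47 in KO 1 to 3 and -0.30, 0.19 and 0.07 in wild type 1 to 3. Over the 93 nuclear members the same medians were -0.07, -0.21 and -0.17 against -0.08, 0.07 and 0.02, so the nuclear genes placed KO 1 and wild type 1 side by side too. Within each group the library with the fewest reads had the highest mitochondrial sum and the library with the most reads the lowest. The part of sequencing depth in the result was not tested.

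Leaving out single libraries decided the mitochondrial calls. Removing KO 2, KO 3, or wild type 2 or 3 left no mitochondrial gene called by limma, while removing KO 1 gave 9 calls and removing wild type 1 gave 7. Lower calls over all 20277 genes also moved, to 906, 639, 576 and 509 without KO 2, KO 3, wild type 2 and wild type 3. They were 1385 without KO 1 and 844 without wild type 1, against 1056 with all libraries. Over the 13 genes the median log2 fold change stayed below 0 in each of these fits, between -0.48 and -0.24.

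As a share of all reads, the 13 genes summed to 9523, 7455 and 7353 reads per 1000000 reads (RPM) in the KO-labelled libraries and to 8236, 11364 and 10468 in wild type. The groups overlapped through KO 1 and wild type 1, and the ratio of the means was 0.809. The 93 nuclear members summed to 16133, 14871 and 15289 RPM against 15075, 16710 and 16138, a ratio of 0.966 with overlap. The ratio of mitochondrial to nuclear reads was 0.590, 0.501 and 0.481 against 0.546, 0.680 and 0.649. It overlapped too and averaged 0.524 ± 0.0581 (SD, n = 3) against 0.625 ± 0.0699 (SD, n = 3), so a difference between the genomes was not separated from the spread between libraries. No test was made on these sums of chosen genes.

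**Figure D4:**
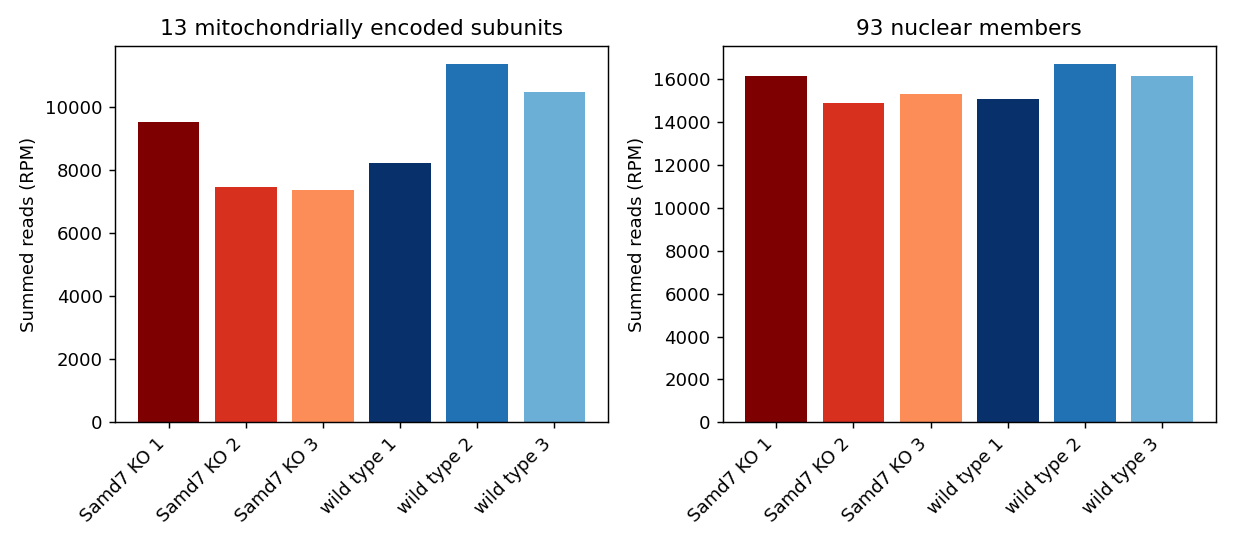
Summed reads per 1000000 reads (RPM) of the 13 mitochondrially encoded subunits (left) and of the 93 nuclear members (right), with 1 bar for each library and axes from 0. The mitochondrial sum of wild type 1, 8236, lies below that of KO 1, 9523.

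The scale matters for the nuclear sum. On the authors' size-factor scale it was 805304, 750109 and 780774 normalized reads against 810202, 863139 and 841816, so there all 3 KO-labelled libraries were below wild type, with a ratio of 0.929. Scaled to library totals, in which abundant rod transcripts weigh heavily, the median log2 fold change of the members was -0.10, and that of all genes 0.06. Under that scaling 4 of 106 members were called lower, against 811 of 20277 genes, so the share was near that of all genes.

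Several mitochondrial genes could not be measured cleanly, because nuclear copies of mitochondrial DNA carry the same sequence. Of the 50-base stretches of COX2, COX3, ATP6, ND4L and ND3, 98.0% to 100% also occurred in another annotated transcript. No source used here says how reads with more than 1 match were counted. These 5 genes had 415 to 15195 normalized reads per kb, and none was called. CYTB, ND1, ND6 and ATP8, with no shared stretch, had 120010, 80365, 17598 and 409 reads per kb, and in ND4 and COX1 62.2% and 51.1% of stretches were shared.

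For ATP6 the table also holds a row for its nuclear copy Gm10925, at 9878, 6651 and 6102 normalized reads against 6526, 10810 and 8646. ATP6 itself had 10634, 7589 and 7049 against 7809, 11809 and 10316. The copy's row held nearly as many reads as the gene and placed the libraries in nearly the same order. For ND4L, at 146, 88.1 and 86.6 against 110, 173 and 136, the row of the copy Gm10222 held more reads than the gene, at 384, 225 and 228 against 247, 425 and 296.

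**Figure D5:**
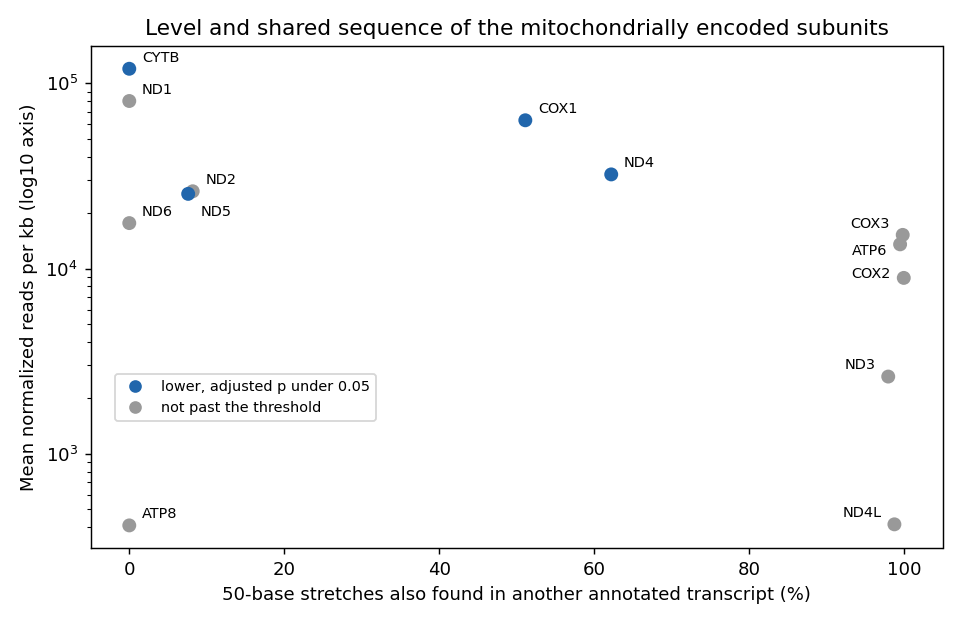
Mean normalized reads per kb (log10 axis, all 6 libraries) of the 13 mitochondrially encoded subunits against the percentage of their 50-base stretches that also occur in another annotated transcript. The 5 genes at 98.0% or more lie at 15195 reads per kb or less, and the 4 lower calls lie at 62.2% or less.

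The remaining mitochondrial genes had wide intervals. COX3 had 13527, 10307 and 9721 normalized reads against 10180, 14582 and 13162, and COX2 had 7104, 5100 and 4706 against 5362, 7806 and 6447. ND3 ran from 604 in wild type 1 to 1213 in wild type 2, a spread within wild type larger than the difference of the group means. ATP8, at 64.2 to 115 reads, had a log2 fold change of -0.05 with a 95% interval from -0.55 to 0.45, so the interval covers a fall as well as a rise.

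Of 187 tested genes on the lists that serve the chain, members left out and some pseudogene symbols included, 5 were higher (2.67%) and 14 lower (7.49%). Over all genes the shares were 6.79% and 5.21%. Among them, 2 small complex IV partners moved in opposite directions. Higd2a, a HIG1-family protein needed for assembly of complex IV and of supercomplexes, had 13141, 11143 and 12286 normalized reads against 5819, 6476 and 6183. The lowest KO-labelled library was far above the highest control, with a 1.98-fold higher mean, a log2 fold change of 0.98 ± 0.078 (SE) and a limma adjusted p of 5.15e-06. Its hypoxia-induced relative Higd1a had 6175, 6029 and 6210 against 8257, 7879 and 8080, a 1.32-fold lower mean with an adjusted p of 0.00169. Both calls held in all 18 other settings.

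The 19 complex IV assembly factors included 2 lower calls, Coa7 (log2 fold change -0.34, limma adjusted p 0.0227) and Cox20 (-0.47, adjusted p 0.0479), and no higher call. The Coa7 call was lost in 6 and the Cox20 call in 10 of 18 other settings. Coa7 stood at 1457, 1644 and 1596 normalized reads against 1981, 1942 and 1998. None of the 9 complex I, 6 complex III or 5 ATP synthase assembly genes was called, and none of the 4 complex II subunits. Over the 4 lists the median log2 fold changes were 0.00, -0.01, -0.13 and -0.07, and over the complex IV assembly factors -0.03.

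Of the 10 electron carrier genes, Coq4, needed for ubiquinone synthesis, was the only call. It had 1070, 898 and 984 normalized reads against 769, 720 and 751, a 1.32-fold higher mean with a limma adjusted p of 0.0251. The call was lost in 5 of 18 settings.

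Of 19 genes for transcription and replication of mitochondrial DNA, 2 were lower. Polg2, the accessory subunit of the mitochondrial DNA polymerase, had 1793, 1565 and 2101 normalized reads against 3211, 2679 and 2709, a 1.58-fold lower mean (limma adjusted p 0.00254). Top1mt, the mitochondrial topoisomerase, had 1147, 1201 and 1113 against 1665, 1510 and 1562, a 1.37-fold lower mean (adjusted p 0.00530). Both were called under every setting tried, and in neither did the groups overlap. The list's median was -0.02.

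Among 15 nuclear regulators of respiratory genes, 3 were lower and 1 higher. Esrrb, an estrogen-related receptor of rods, had 9388, 8900 and 8630 normalized reads against 12918, 13060 and 11087, a 1.38-fold lower mean (limma adjusted p 0.00216). Esrra, its widely expressed relative, had 2556, 2465 and 2773 against 3327, 3196 and 3246, a 1.25-fold lower mean (adjusted p 0.0179), a call lost in 4 of 18 other settings. Ppargc1b, a coactivator of both, was 1.39-fold higher, at 5925, 6469 and 7140 against 5152, 4364 and 4533 (adjusted p 0.00466).

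Mitochondrial ribosomal proteins, listed by symbol, gave 5 lower and 2 higher calls of 83 tested, with a median of -0.11. Unlike the members, this list kept pseudogene symbols such as Mrpl23-ps1 and Mrpl27-ps, neither of which was called. Over all genes 5.21% were lower and 6.79% higher, so the lower count was near the share of all genes. Mrps35 was 1.52-fold higher, while Mrpl54 and Mrpl49 were 1.39-fold and 1.27-fold lower, with limma adjusted p of 0.00114, 0.00353 and 0.00419. Of 15 outer membrane and import genes only Timm44, which anchors the import motor to the inner membrane channel, was called. It had 4361, 4071 and 4300 normalized reads against 5717, 8861 and 8510, a 1.81-fold lower mean (adjusted p 0.00166), with wild type 1 well below the other controls.

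Promoter motifs of the known regulators were searched in the full RefSeq promoter windows of 74 nuclear members and of 13957 tested genes. These windows extend further on both sides of the gene start than the stretches printed for Cox8a and Cox8b. A gene was counted if any of its windows held the motif. The NRF1 motif GCGCATGCG, searched on both strands, was present for 13.5% of members and 3.30% of all tested genes. For the YY1 motif AAGATGGC the shares were 14.9% and 4.49%, and for the GABPA motif CCGGAAGT 6.76% and 7.35%. The estrogen-related receptor motif TCAAGGTCA was present for only 1 member, Atp5g3 (1.35%), against 0.358% of all tested genes. The photoreceptor motif TAATCC of CRX was in 8.11% against 7.44%, and TATAAA, on the gene strand, in 4.05% against 5.98%. Cox8a was 1 of 5 members with the GABPA motif and Cox8b 1 of 3 with TATAAA, the others being Ndufa3 and Ndufs7. These are counts of letters in a window, not of bound sites.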

How the data were processed

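The authors' deposited table gives, per the file headers and the values, a signal for each gene and library: read counts scaled by the library's size factor. The table also holds the authors' log2 fold change, Wald score, p-value and adjusted p-value from DESeq2. The submitters' processing notes name the genome and software: GRCm38 and mm10 are the builds, and SAMtools 1.9, HTSeq 0.12.4, DESeq2, STAR 2.7.3a, DRAGEN and cutadapt 3.0 are named as tools. What each did, the strand setting and the treatment of reads with several matches: not given in the sources used here. Without the strand setting, reads of overlapping genes such as Atp5d and Cbarp or ND5 and ND6 cannot be told apart.

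Dividing by the worth of 1 read returned whole reads for 166478 of 166478 values above 0 (100%, within 0.01 reads). Because the values are normalized, the main test was limma-trend (limma 3.58.1, R 4.3.3) on log2(value + 1), which understates changes of low genes. It was fitted, two-sided, to all 20277 genes that reached 10 in 3 or more libraries, with Benjamini-Hochberg adjustment over all of them and calls at an adjusted p under 0.05. On the recovered reads, edgeR 4.0.16 with TMM factors called 1430 genes higher and 1064 lower, and DESeq2 1.42.0 served as a further alternative. Each fold is a ratio of 2 group means of normalized reads. The script was tested on simulated counts.

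The values of 1 called member are not reported here, though it is counted. The members and gene lists were chosen with earlier results of these data known. Members described by name were the called ones, all mitochondrial ones, the extremes and highest of each complex and the isoform families, and list genes were named only where called, at most 3 a list. Ndufs1, Ndufs3, Ndufs8, Ndufv1 and Ndufv2, the nuclear copies, the printed promoters, the TATAAA motif, the count of shared 50-base stretches (GENCODE M21 transcripts, both strands) and the reference transcript for levels per kb (the median-length principal one) were chosen after values were seen. Gene positions and promoters are RefSeq, GRCm38.p6, and 74 nuclear members had a promoter entry. Between replicates, chi-square over its degrees of freedom was 6.78 to 33.0, above counting noise, so no pair was merged as 1 library deposited more than once. This does not show whether the preparations were separate.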

Additional observations from a re-analysis of the deposited data

How the results depend on the processing

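Against 14 members called lower and 1 higher, limma-voom with sample quality weights called 39 and 3, removal of the transcript-length trend 17 and 3, scaling to library totals 4 and 1, no filter 7 and 1, and an adjusted p under 0.01 2 and 1. Over all genes, lower calls were 2050 of 20277 with limma-voom and 1511 of 18495 without the length trend. They were 811 of 20277 scaled to totals and 929 of 33327 without a filter. Leaving out 1 library gave 1 to 26 lower and 1 to 2 higher calls: 26 without KO 1, 5 without KO 2, 4 without KO 3, 17 without wild type 1, 2 without wild type 2 and 1 without wild type 3. Over all 20277 genes the lower calls of these fits were, in the same order, 1385, 906, 639, 844, 576 and 509. The share of the 106 members was thus above that of all genes without KO 1 or wild type 1. It was near or below that share when any other library was left out. The replicate numbers did not pair the samples, as same-numbered libraries had correlated deviations of -0.182, -0.133 and -0.0141; with the replicate block, 2 members were called lower (Ndufs7 and Ndufb9) and 1 higher (Cox8a). The edgeR fits, DESeq2, other pseudocounts and the stricter filter gave 13 to 19 lower and 1 higher. Of all genes called, 56.6% were higher, against 71.2% scaled to totals and 44.8% with the length trend removed. Without assembly factors and copies, or on the size-factor scale, the ratios of the summed reads moved by less than the spread between libraries, although the nuclear groups overlapped as reads per library total (ratio 0.966) and not on the size-factor scale (0.929).

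Signs were followed gene by gene only for the members named by rule, and turned only among those not called. Over all 106 members, 93 lay below 0 in the main fit. That number was 82 scaled to totals, 80 without wild type 2, 86 without KO 2 and 98 without wild type 1. ATP8 reached 0.0072 scaled to totals and 0.092 with the length trend removed, Uqcrc2 0.049 and 0.013. With 1 library left out, the log2 fold change ranged from -0.237 to 0.177 for ATP8, -0.493 to 0.00965 for ND3, -0.0235 to 0.00616 for Uqcrc2, -0.0115 to 0.082 for Atp5g2 and -0.19 to 0.0434 for Cox6c. The cause was not tested. With 3 libraries a group the depth of rare members, such as Cox6a2, Cox8b and ATP8, limits what could be seen.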
